A study of Mus musculus with 16 samples.

Results

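The genes described here were 10 that encode NF-kB subunits, their inhibitors and their activating kinase: *Nfkb1*, *Nfkb2*, *Rela*, *Relb*, *Nfkbia*, *Nfkbib*, *Nfkbiz*, *Tnfaip3*, *Ikbkb* and *Bcl3*. They were selected by symbol, not by their values, although earlier results of these data were known. They make up 10 of the 20622 genes in the deposited tables. The question was how their mRNA level and their ribosome occupancy compared between lung tumour cells that had been targeted at *Eif4a2* and cells that had not.

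KM cells came from lung tumours of 1 male mouse at clinical endpoint that carried a transgene at both copies of its locus, Rosa26 LSL-MYC/LSL-MYC, so both lines shared the MYC transgene. KMNTC cells received a lentiviral CRISPR vector with a non-targeting guide. KM4A2cr cells received the same kind of vector with a guide against the coding region of *Eif4a2*, which encodes a paralogue of the RNA helicase of the translation initiation complex, and were a pool of 4 clones chosen for lack of the protein. All cells were untreated. From each lysate, fragments of mRNA protected by ribosomes from nuclease digestion (RPFs) and total cytoplasmic RNA were sequenced, in 4 replicates of each line on different days, which gave 16 libraries.

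NF-kB is a family of transcription factors that work as dimers. *Rela*, *Relb* and a gene not among the 10, *Rel*, encode subunits with an activation domain, while *Nfkb1* and *Nfkb2* encode the precursors p105 and p100, which are processed to p50 and p52. In resting cells the dimers are held in the cytoplasm by IkB proteins, among them those of *Nfkbia* (IkB alpha) and *Nfkbib* (IkB beta). The IkB kinase, whose beta subunit is encoded by *Ikbkb*, marks these inhibitors for destruction, and the dimers then enter the nucleus. Several of the genes they switch on feed back on the pathway, such as *Nfkbia* and *Tnfaip3*, which encodes the ubiquitin-editing enzyme A20. *Nfkbiz* and *Bcl3* encode atypical IkB proteins that act in the nucleus on p50 and p52 dimers. In lung epithelium and lung tumours the pathway is known for its part in inflammation and cell survival.

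Several of these genes, such as *Nfkbia* and *Tnfaip3*, are known as targets of NF-kB. The members' promoters were therefore read for the kB consensus, the 10-letter element that NF-kB dimers bind. Promoter windows from RefSeq (GRCm38.p6) reach from 250 bases before to 50 bases after each annotated transcription start, 300 bases in all, and both strands were searched. Windows were found for 6 of the 10 members, and 4 of these 6 (66.7%) held at least 1 match. Over all genes with a window, 5.14% of 27025 did. Windows were not found for *Nfkb1*, *Relb*, *Nfkbiz* and *Ikbkb*. The windows of *Rela* and *Nfkbib* held no match, which says only that these letters are not in those windows. The matches are printed below with 10 bases on either side, 5′ to 3′ on the strand of the gene, with the matched letters in capitals, so that the sites can be compared between members.
Nfkb2, chr19:46304688-46304717, plus strand: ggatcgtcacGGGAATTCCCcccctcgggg
Nfkb2, chr19:46304716-46304745, plus strand: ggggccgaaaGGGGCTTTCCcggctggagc
Nfkb2, chr19:46305449-46305478, plus strand: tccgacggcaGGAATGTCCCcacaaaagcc
Nfkb2, chr19:46305695-46305724, plus strand: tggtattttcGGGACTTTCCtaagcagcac
Nfkbia, chr12:55492657-55492686, minus strand: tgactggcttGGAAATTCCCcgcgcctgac
Tnfaip3, chr10:19015516-19015545, minus strand: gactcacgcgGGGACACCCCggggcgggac
Tnfaip3, chr10:19015403-19015432, minus strand: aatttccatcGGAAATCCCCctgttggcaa
Bcl3, chr7:19822734-19822763, minus strand: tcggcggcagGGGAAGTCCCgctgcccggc

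*Nfkb2* had the most matches, spread over the windows of 3 annotated starts. The first of them overlapped another match that began 1 base further on and is not printed again. In *Nfkbia* the match began 29 bases before the start, in *Tnfaip3* the 2 matches began 125 and 12 bases before it, and in *Bcl3* the match lay across the first bases of the transcript. A match is a description of letters and not a measured binding site, and no binding was measured in these cells.

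The libraries held 4512403 to 9621848 RPF counts and 5350920 to 9312624 total RNA counts. In each group the replicate 4 library was the shallowest, and it stood apart from the others in the markers below. *Eif4a2*, the targeted gene, was lower in KM4A2cr in all 4 pairs of libraries for RPFs, with a log2 fold change of -0.49 (SE 0.15, edgeR adjusted p = 0.0941), and was not called in total RNA (-0.18, SE 0.13, edgeR adjusted p = 0.504). The epithelial markers were all detected, with a summed RPF level of 9284 to 13913 CPM (counts scaled to library size) in KMNTC and 11089 to 15059 in KM4A2cr. At an edgeR adjusted p under 0.1, 2 of the 8 rose in RPFs, where 6.6% of all genes did, and 0 were called in total RNA. These were *Epcam* (log2 fold change 0.51, edgeR adjusted p = 0.0770) and *Cdh1* (0.44, edgeR adjusted p = 0.0845). By contrast, *Sftpc* and *Sftpb*, from the list of alveolar type II markers, had 0 total RNA counts in all libraries. The authors assessed cell identity by markers that included surfactant protein C, which *Sftpc* encodes. Of the 8 alveolar type II markers, *Abca3*, a lipid transporter, gave most of the signal, with 3008 RPF counts over the KMNTC and 3660 over the KM4A2cr libraries. It was higher in 4 of 4 pairs (log2 fold change 0.54, edgeR adjusted p = 0.0501), and the summed total RNA level of that list was 77.9 to 196 CPM. The other type II markers in the RPF table were too sparse to be tested and did not share this direction. *Sftpd* had 27 RPF counts in KMNTC and 14 in KM4A2cr, lower in 4 of 4 pairs, and *Napsa* had 17 in each line. Of 10 macrophage and leukocyte markers, 7 were in the RPF table. Their summed RPF level was 820 CPM in KMNTC and 714 CPM in KM4A2cr replicate 4, against 121 to 208 CPM in replicates 1 to 3 of both lines. *Cd68*, a lysosomal gene not limited to macrophages, and *Cd14* gave most of these counts. *Ptprc* had 48 RPF counts over the KMNTC and 29 over the KM4A2cr libraries, and *Csf1r* had 23 and 24. *Adgre1* and *Lyz2* had 0 to 2 counts per line. The summed RPF levels of fibroblast markers (2 of 9 in the table) and endothelial markers (5 of 6) reached 21.4 and 17.8 CPM at most, again in replicate 4. The part of these differences between replicates in the results below was not tested, and values without replicate 4 are given where its absence turned the direction or a call. In bulk libraries like these, fewer expressing cells and less RNA per cell cannot be told apart.

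All 10 members had enough counts to be tested for RPFs, for total RNA and for translational efficiency, the change of RPFs beyond that of total RNA. At an edgeR adjusted p under 0.1, 0 of the 10 were called for RPFs, against 10.3% of the 10291 genes tested. In total RNA 0 of 10 were called, against 6.13% of 10880 genes, and in translational efficiency 0 of 10, against 2.91% of 9989 genes. In a set of 10 genes, 0 calls do not stand apart from these shares. At an unadjusted p under 0.05 the counts were 1 member for RPFs, 0 for total RNA and 1 for translational efficiency by edgeR, where the shares of all genes were 23.4%, 18.3% and 14.1%. DESeq2 called 0 members for RPFs and total RNA, and 0 had an unadjusted p under 0.05. In translational efficiency it gave no adjusted p for 6 members, called 0 of the other 4, and 0 of 10 had an unadjusted p under 0.05. The CPM ranges of KMNTC and KM4A2cr overlapped for every member in both kinds of library, and they did not overlap for 2.13% of all genes tested in RPFs and 1.97% in total RNA. The median log2 fold change of the members was 0.10 for RPFs, -0.094 for total RNA and 0.20 for translational efficiency, beside -0.0090, 0.0099 and -0.017 over all genes tested.

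**Figure D1:**
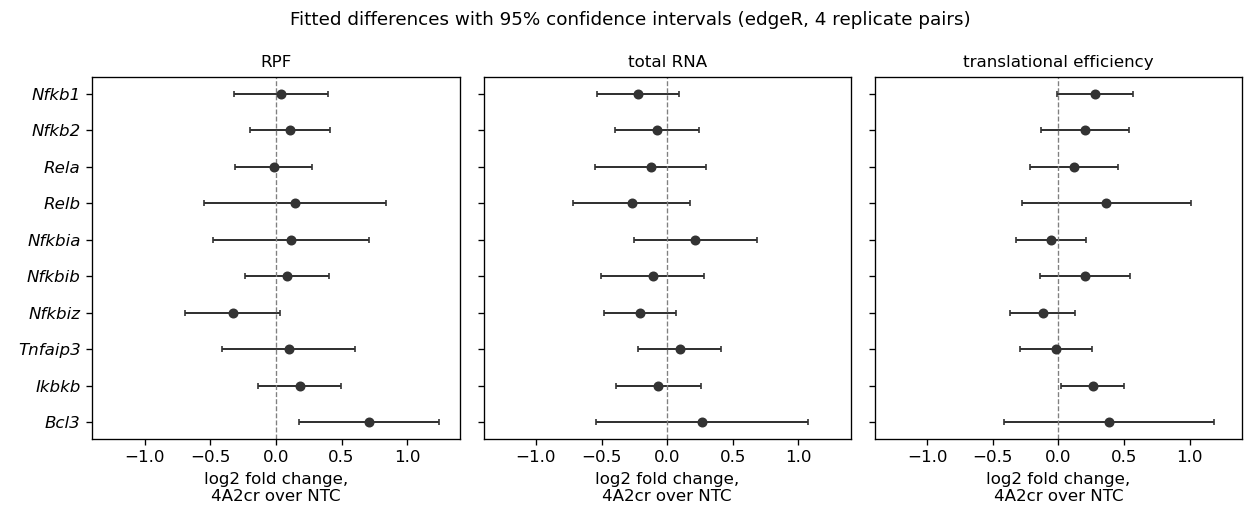
Log2 fold change of KM4A2cr over KMNTC for each of the 10 genes (points) with its 95% confidence interval (bars) from edgeR, for RPFs, total RNA and translational efficiency, from 4 replicate pairs. All intervals contain 0 except those of Bcl3 for RPFs (0.17 to 1.25) and Ikbkb for translational efficiency (0.024 to 0.50), neither of which was called after adjustment over all genes.

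The members were not measured equally tightly. For RPFs the 95% intervals were narrowest for *Rela*, from -0.31 to 0.28, and *Nfkb2*, from -0.20 to 0.41. The widest RPF intervals belonged to *Relb* (-0.55 to 0.84), *Nfkbia* (-0.48 to 0.71) and *Bcl3*. Values below are TMM-normalised CPM, which are comparable between libraries of 1 kind but not between genes or between the kinds of library, and are given for replicates 1, 2, 3 and 4 in that order.

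Among the subunits with an activation domain, *Rela* (ENSMUSG00000024927.9), which encodes p65, had RPF levels of 37.9, 36.6, 43.8 and 30.001 CPM in KMNTC and 35.1, 40.7, 37.3 and 32.9 CPM in KM4A2cr. The ranges nearly coincided, 2 pairs lay on either side of 0, and the log2 fold change was -0.019 (SE 0.13, edgeR adjusted p = 0.948). In total RNA *Rela* stood at 12.3, 9.35, 14.5 and 10.2 CPM in KMNTC and 7.52, 10.1, 12.1 and 13.1 CPM in KM4A2cr. Here replicates 1 and 3 were lower in KM4A2cr and replicates 2 and 4 higher, with a log2 fold change of -0.12 (SE 0.19, edgeR adjusted p = 0.783). *Relb* (ENSMUSG00000002983.18), the usual partner of p52, was scarce, with 121 RPF counts over the 4 KMNTC and 108 over the 4 KM4A2cr libraries. Its RPF level was 1.54, 4.47, 4.93 and 4.83 CPM in KMNTC and 2.78, 3.08, 3.51 and 9.42 CPM in KM4A2cr. Replicate 1 was the lowest in both lines and replicate 4 of KM4A2cr the highest of the 8 libraries, and the log2 fold change was 0.14 (SE 0.31, edgeR adjusted p = 0.815), or -0.15 without replicate 4. In total RNA it was 3.37, 7.55, 5.41 and 9.20 CPM in KMNTC and 1.80, 6.74, 4.54 and 8.76 CPM in KM4A2cr. All 4 total RNA pairs were below 0, but the log2 fold change of -0.27 (SE 0.20, edgeR adjusted p = 0.528) was not called.

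The precursor genes gave a similar picture for RPFs. *Nfkb1* (ENSMUSG00000028163.18) had RPF levels of 22.6, 25.6, 24.4 and 8.81 CPM in KMNTC and 22.1, 23.9, 22.2 and 13.7 CPM in KM4A2cr. Replicates 1 to 3 lay within a narrow band in both lines and replicate 4 was far lower in both, and the log2 fold change was 0.038 (SE 0.16, edgeR adjusted p = 0.909), or -0.089 without replicate 4. Its total RNA was 28.2, 35.5, 29.3 and 23.4 CPM in KMNTC against 22.9, 24.9, 26.5 and 25.4 CPM in KM4A2cr. The total RNA log2 fold change was -0.22 (SE 0.14, edgeR adjusted p = 0.446), and without replicate 4 it was -0.34 with an edgeR adjusted p of 0.0520, which passes the threshold. Without that replicate, however, 29.8% of all genes tested in total RNA passed too. *Nfkb2* (ENSMUSG00000025225.16) had RPF levels of 19.4, 16.0, 16.2 and 15.1 CPM in KMNTC and 19.7, 18.9, 18.4 and 14.5 CPM in KM4A2cr, with a log2 fold change of 0.11 (SE 0.14, edgeR adjusted p = 0.673). In total RNA its KMNTC libraries were the most even of any member, at 16.6, 17.1, 16.2 and 16.7 CPM, and the KM4A2cr libraries held 16.0, 15.9, 12.7 and 19.1 CPM on both sides of them (log2 fold change -0.078, SE 0.15, edgeR adjusted p = 0.830).

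**Figure D2:**
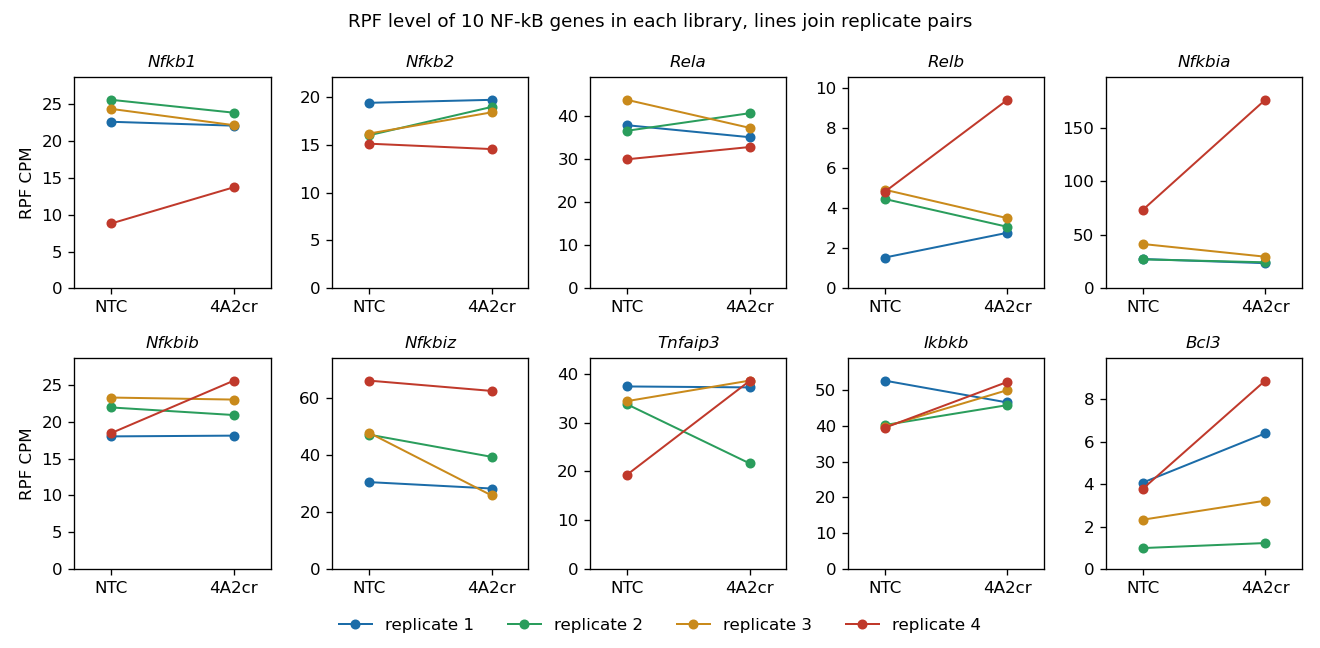
RPF level (TMM-normalised CPM, linear axis from 0) of each gene in the 4 KMNTC and 4 KM4A2cr libraries, with a line joining the libraries of 1 replicate. Replicate 4 of KM4A2cr stood at 176 CPM for Nfkbia against 23.5 to 29.6 CPM in replicates 1 to 3, and all 4 lines slope down for Nfkbiz and up for Bcl3.

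Of the classical cytoplasmic inhibitors, *Nfkbia* (ENSMUSG00000021025.9), which carries the kB match shown above and is a textbook target of the factor it restrains, differed widely between replicates. It had RPF levels of 27.4, 27.1, 41.5 and 73.2 CPM in KMNTC and 23.5, 24.4, 29.6 and 176 CPM in KM4A2cr. Replicate 4 was the highest in both lines, and the difference between the lines had opposite signs there and in the other replicates. Within pairs the log2 differences were -0.22, -0.15, -0.48 and 1.27, and the fitted log2 fold change was 0.11 (SE 0.26, edgeR adjusted p = 0.833). Without replicate 4 it was -0.29 (edgeR adjusted p = 0.117). Total RNA was again highest in replicate 4 of both lines, at 18.8, 16.6, 26.1 and 49.4 CPM in KMNTC and 16.2, 16.0, 24.0 and 106 CPM in KM4A2cr. Its log2 fold change was 0.21 (SE 0.21, edgeR adjusted p = 0.642), and -0.13 without replicate 4 (edgeR adjusted p = 0.523). The translational efficiency of *Nfkbia* was -0.055 (SE 0.13, edgeR adjusted p = 0.892).

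*Nfkbib* (ENSMUSG00000030595.16), the other classical inhibitor measured here, was far steadier. Its RPF level was 18.0, 21.9, 23.3 and 18.5 CPM in KMNTC and 18.1, 20.9, 23.0 and 25.6 CPM in KM4A2cr. Pairs 1 to 3 differed by at most 0.068 in either direction on the log2 scale and only pair 4 stood out, at 0.46, for a log2 fold change of 0.083 (SE 0.14, edgeR adjusted p = 0.761), or -0.026 without replicate 4. Total RNA was 14.7, 11.4, 11.2 and 10.9 CPM in KMNTC and 9.98, 9.80, 11.6 and 14.1 CPM in KM4A2cr, with a log2 fold change of -0.11 (SE 0.18, edgeR adjusted p = 0.795).

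*Tnfaip3* (ENSMUSG00000019850.12), the gene of A20, whose printed window held 2 kB matches, did not share the high replicate 4 level of *Nfkbia*. Its RPF level was 37.4, 33.8, 34.4 and 19.3 CPM in KMNTC and 37.2, 21.6, 38.6 and 38.5 CPM in KM4A2cr. One library was low in each line, replicate 4 in KMNTC and replicate 2 in KM4A2cr, and the log2 fold change was 0.097 (SE 0.22, edgeR adjusted p = 0.827), or -0.15 without replicate 4. In total RNA it had 62.6, 40.6, 47.3 and 32.2 CPM in KMNTC and 63.4, 34.5, 52.1 and 45.4 CPM in KM4A2cr. The pairs followed each other, with replicate 1 highest in both lines, and the log2 fold change was 0.095 (SE 0.14, edgeR adjusted p = 0.776), or -0.034 without replicate 4.

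*Ikbkb* (ENSMUSG00000031537.16), the catalytic subunit through which most inflammatory signals reach the inhibitors, had RPF levels of 52.6, 40.2, 39.7 and 39.4 CPM in KMNTC and 46.5, 45.8, 49.9 and 52.2 CPM in KM4A2cr. Replicate 1 of KMNTC was the highest of all 8 libraries, while in the other 3 pairs KM4A2cr was higher. The RPF log2 fold change was 0.18 (SE 0.14, edgeR adjusted p = 0.477). Its total RNA was 58.9, 53.0, 50.4 and 52.3 CPM in KMNTC and 46.9, 44.5, 47.3 and 69.6 CPM in KM4A2cr, lower in 3 pairs and higher in pair 4 (log2 fold change -0.068, SE 0.15, edgeR adjusted p = 0.855). The log2 ratio of RPF to total RNA CPM was -0.16, -0.40, -0.34 and -0.41 in KMNTC and -0.014, 0.038, 0.076 and -0.41 in KM4A2cr. It was higher in KM4A2cr in pairs 1 to 3 and the same to 2 decimals in pair 4. This translational efficiency difference, 0.26 on the log2 scale (SE 0.12), had an unadjusted p of 0.0323 and an edgeR adjusted p of 0.291. Without replicate 4 it was 0.34 with an edgeR adjusted p of 0.0959, in a comparison where 6.68% of all genes passed.

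The nuclear, atypical IkB proteins had the largest RPF differences of the 10 genes, in opposite directions. *Nfkbiz* (ENSMUSG00000035356.18), which encodes IkB zeta, a coactivator of a subset of p50 targets, had RPF levels of 30.5, 47.2, 47.8 and 66.1 CPM in KMNTC and 28.3, 39.4, 25.8 and 62.5 CPM in KM4A2cr. All 4 pairs were below 0, by 0.11, 0.26, 0.88 and 0.081 on the log2 scale, so most of the difference came from replicate 3. The log2 fold change was -0.33 (SE 0.16, edgeR adjusted p = 0.250). Total RNA lay in the same direction in all 4 pairs, with 51.3, 55.7, 61.4 and 112 CPM in KMNTC and 50.9, 51.3, 46.4 and 91.7 CPM in KM4A2cr (log2 fold change -0.21, SE 0.12, edgeR adjusted p = 0.426). Replicate 4 was the highest in both lines and both kinds of library, as it was for *Nfkbia*. Without it the RPF log2 fold change was -0.41 and passed the threshold (edgeR adjusted p = 0.0628), in a fit where 33.4% of all genes did. Leaving out replicate 3 instead gave -0.12.

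*Bcl3* (ENSMUSG00000053175.18) had the smallest unadjusted RPF p of the members and the fewest counts, 90 over the KMNTC and 119 over the KM4A2cr libraries. The RPF counts were 45, 10, 17 and 18 in KMNTC and 53, 10, 23 and 33 in KM4A2cr. In CPM these were 4.07, 0.993, 2.33 and 3.78 against 6.40, 1.23, 3.23 and 8.89. Each pair was higher in KM4A2cr although the ranges of the lines overlapped, since replicates differed more than lines. The log2 fold change was 0.71 (SE 0.24, 95% interval 0.17 to 1.25), with an unadjusted p of 0.0150 and an edgeR adjusted p of 0.120. With 1 replicate left out the log2 fold change lay between 0.54 and 0.81. Total RNA held only 46 and 44 counts, at 1.96, 1.53, 0.947 and 1.53 CPM in KMNTC and 2.45, 1.02, 0.757 and 3.92 CPM in KM4A2cr. These lay on both sides, 2 pairs above and 2 below 0, with a log2 fold change of 0.26 (SE 0.36, edgeR adjusted p = 0.754) whose interval ran from -0.54 to 1.07. Without replicate 4 it was -0.14.

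**Figure D3:**
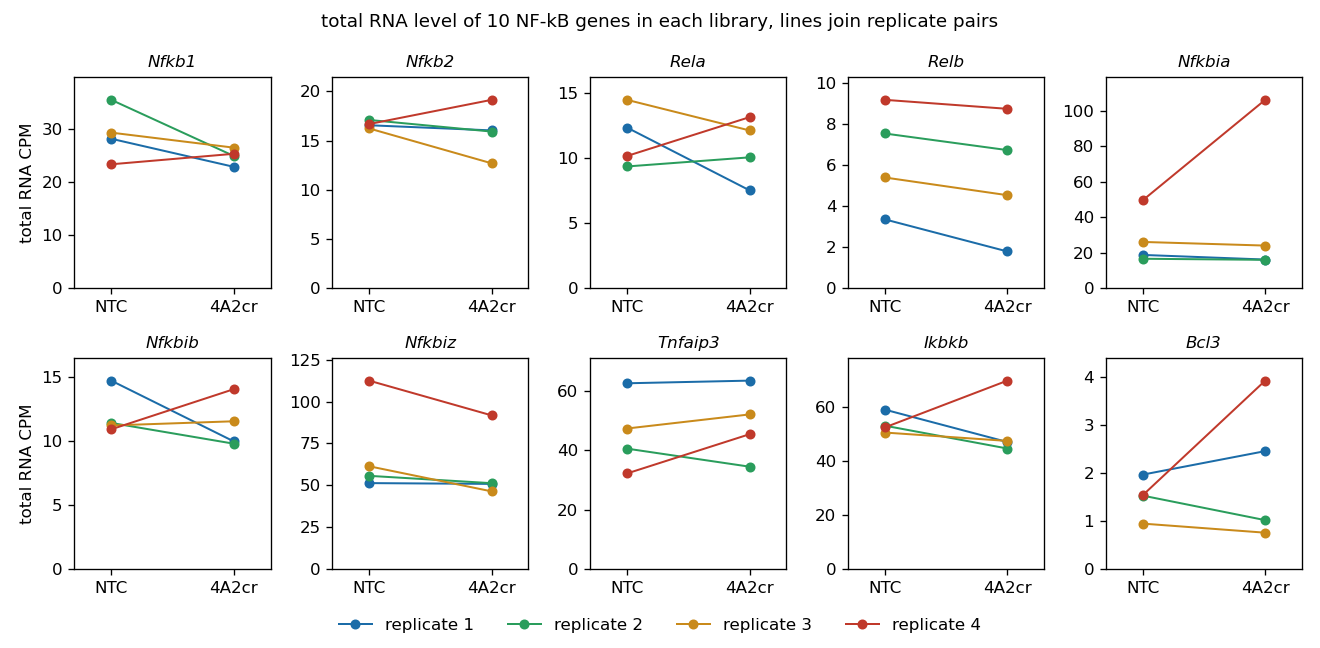
Total RNA level (TMM-normalised CPM, linear axis from 0) of each gene in the 4 KMNTC and 4 KM4A2cr libraries, with a line joining the libraries of 1 replicate. For Nfkbia and Nfkbiz the replicate 4 libraries lie above those of replicates 1 to 3 in both lines, and all 4 lines slope down for Relb and Nfkbiz.

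Members with all 4 pairs on the same side of 0 numbered 2 of 10 for RPFs (*Nfkbiz* and *Bcl3*), where 30.1% of all genes tested had this, and 2 of 10 for total RNA (*Relb* and *Nfkbiz*), against 25.4%. In translational efficiency 1 of 10 did, against 21.8%. That member was *Nfkb1*, whose log2 ratio of RPF to total RNA CPM was -0.32, -0.47, -0.27 and -1.38 in KMNTC and -0.052, -0.065, -0.26 and -0.87 in KM4A2cr. The difference was 0.28 (SE 0.14, edgeR adjusted p = 0.379), and in pair 3 it was only 0.0092. The other translational efficiency values were 0.37 for *Relb*, 0.39 for *Bcl3*, 0.21 for *Nfkb2*, 0.20 for *Nfkbib* and 0.12 for *Rela*, and -0.018 for *Tnfaip3* and -0.12 for *Nfkbiz*. None of these passed the threshold.

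Set side by side, the pairs differed in how the members lay. For total RNA, 2, 1 and 2 of the 10 members were higher in KM4A2cr in pairs 1, 2 and 3, with medians of -0.25, -0.19 and -0.19 on the log2 scale. In pair 4, 8 of 10 were higher, with a median of 0.36. Over all genes tested, 46.7%, 52.8%, 50.4% and 51.1% were higher in the 4 pairs. For RPFs, 4, 4 and 4 members were higher in pairs 1 to 3, with medians of -0.021, -0.085 and -0.076, and 8 in pair 4, where the median was 0.54. Over all genes, 45.1%, 51.8%, 50.1% and 48.7% were higher in RPFs. In translational efficiency 7, 6, 6 and 6 members were above 0. The pattern was described from these CPM values and was not tested. For total RNA it depended on the scaling. In TPM, the level per length given below, *Nfkbia*, *Tnfaip3* and *Bcl3* were higher in KM4A2cr in pair 4. The other members were lower there, such as *Nfkb1* at 8.51 TPM in KMNTC and 6.87 TPM in KM4A2cr. In pairs 1, 2 and 3 only *Bcl3*, *Rela* and *Tnfaip3*, in that order, were higher in TPM. Without replicate 4 the members' median was -0.075 for RPFs and -0.21 for total RNA, and 0 of 10 members were above 0 in total RNA, where 5162 of all 10941 genes tested were.

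**Figure D4:**
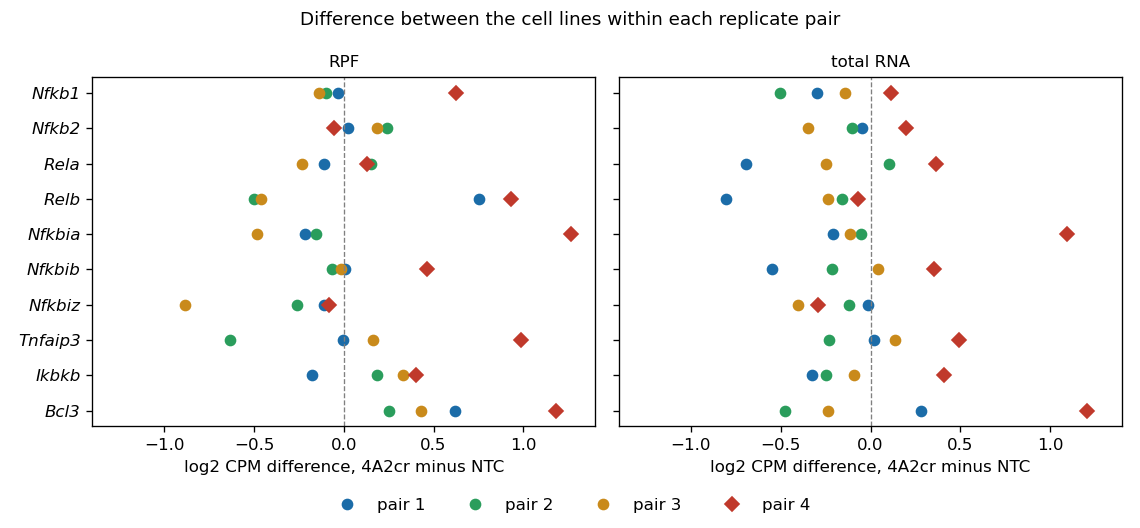
Log2 CPM difference of KM4A2cr minus KMNTC within each replicate pair for the 10 genes, for RPFs (left) and total RNA (right), with circles for pairs 1 to 3 and diamonds for pair 4. In total RNA 8 of 10 diamonds lie right of 0, while only 2, 1 and 2 of the circles of pairs 1, 2 and 3 do.

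Replicate 4 also stood apart in level within a line, differently for different members. *Nfkbia* and *Nfkbiz* lay above the range of replicates 1 to 3 in both lines and both kinds of library. By contrast, *Nfkb1*, *Nfkb2* and *Rela* lay below that range in the RPFs of both lines. In total RNA CPM, 8 members of KM4A2cr lay above the range of replicates 1 to 3 and 2 within it, whereas in KMNTC 3 lay above, 3 below and 4 within. In TPM only *Nfkbia* and, narrowly, *Bcl3* lay above that range in KM4A2cr, and *Nfkb1*, *Nfkb2*, *Tnfaip3* and *Ikbkb* lay below it. The sources used here do not say how the replicate 4 cultures differed from the others.

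Levels of different genes were compared per length, as TPM of total RNA summed over isoforms. In KMNTC the order of means was *Nfkbia* at 32.8 ± 12.5 TPM (SD, n = 4), *Nfkbiz* at 32.4 ± 8.41, *Ikbkb* at 26.5 ± 4.503, *Tnfaip3* at 19.2 ± 6.27, *Nfkbib* at 16.5 ± 3.33, *Nfkb1* at 13.2 ± 4.22, *Nfkb2* at 9.55 ± 1.52, *Rela* at 7.97 ± 1.75, *Relb* at 5.46 ± 2.12 and *Bcl3* at 1.57 ± 0.508. The median of all genes above 1 TPM was 18.4 TPM. The means of the kinase, A20 and the inhibitors other than *Bcl3* were above those of the subunits, with *Bcl3* last, and the order of means over 4 libraries was the same in KM4A2cr. The first place of *Nfkbia* rests on replicate 4. Over replicates 1 to 3 *Nfkbiz* came first in both lines, at 28.5 TPM in KMNTC and 23.7 TPM in KM4A2cr, where *Nfkbia* had 26.9 and 23.1 TPM and *Ikbkb* 28.3 and 22.7 TPM. The order from *Tnfaip3* to *Bcl3* was the same with and without it. Neighbours in this order overlapped in their libraries in both lines, with the exception of *Relb* over *Bcl3* in KMNTC. In KM4A2cr *Nfkbia* had 19.4, 22.2, 27.6 and 80.6 TPM, and *Nfkbiz* had 23.5, 27.3, 20.4 and 26.8 TPM. The replicate 4 library of KM4A2cr was therefore not apart for *Nfkbiz* in TPM, although it was in CPM. *Nfkb2*, *Rela*, *Relb*, *Nfkbib* and *Ikbkb* likewise lay above replicates 1 to 3 there in CPM but not in TPM. TPM are divided by isoform length and carry no TMM factor.

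**Figure D5:**
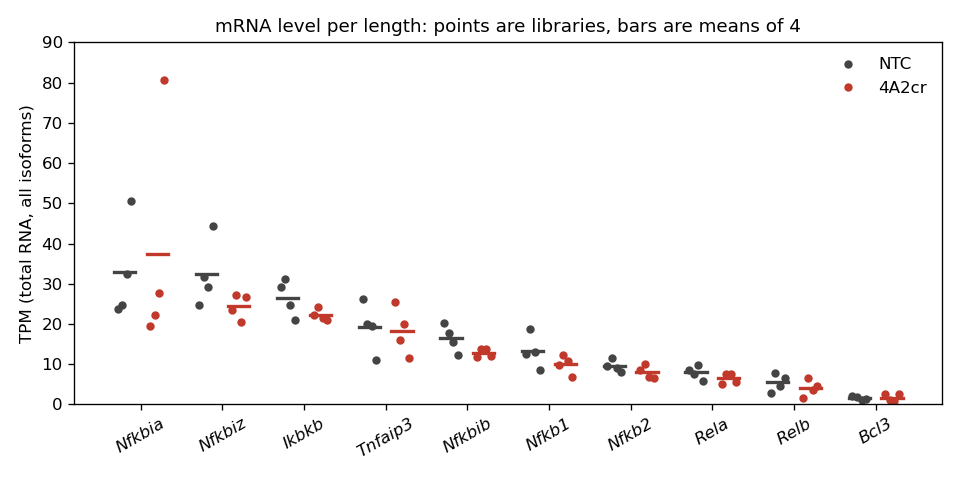
Total RNA level per length (TPM summed over isoforms, linear axis from 0) of the 10 genes, ordered by the KMNTC mean. Points are the 4 libraries of each line and bars are their means, which run from 32.8 TPM for Nfkbia to 1.57 TPM for Bcl3 in KMNTC.

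RPF counts belong to 1 isoform per gene, while total RNA counts were summed over all isoforms in the tables. For *Nfkb1*, *Rela*, *Nfkbia* and *Bcl3* these are the same, since 1 isoform was listed. The RPF isoform held 59.6% of the total RNA counts of *Ikbkb*, 56.2% of *Nfkbib*, 52.3% of *Tnfaip3*, 51.9% of *Relb*, 32.6% of *Nfkbiz* (3 isoforms) and 24.9% of *Nfkb2* (4 isoforms). With total RNA of that isoform alone, 0 members were called in total RNA and in translational efficiency by edgeR, with 1 and 2 at an unadjusted p under 0.05. *Relb* moved from -0.27 to -0.80 in total RNA (edgeR adjusted p = 0.208) and from 0.37 to 0.91 in translational efficiency (edgeR adjusted p = 0.274). *Nfkbib* moved from -0.11 to -0.35 in total RNA and from 0.20 to 0.46 in translational efficiency (edgeR adjusted p = 0.317), and *Nfkb2* from -0.078 to -0.26 and from 0.21 to 0.36.

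The rest of the pathway was read from 4 lists. Of 12 other subunits, IkB proteins and IKK complex genes, 11 were tested for RPFs and 0 were called, against 10.3% of all genes tested. Their median log2 fold change was 0.020. The smallest RPF p among them was that of *Ikbke*, the inducible IKK-related kinase, at -0.44 (SE 0.16, edgeR adjusted p = 0.138). In translational efficiency 1 of 10 rose, where 1.87% of all genes did. This was *Map3k7*, the kinase TAK1 that activates the IKK complex, by 0.48 (SE 0.11, edgeR adjusted p = 0.0366). Neither part of that ratio was called for *Map3k7*, with RPFs at 0.32 (edgeR adjusted p = 0.227) and total RNA at -0.16 (edgeR adjusted p = 0.572). Of 27 adaptors and ubiquitin enzymes, 23 were tested for RPFs and 0 were called, against the same 10.3%. *Traf2*, an adaptor of TNF receptors, came nearest, at -0.47 (SE 0.15, edgeR adjusted p = 0.102). In total RNA 1 of 24 rose, against 4.35% of all genes tested. This was *Birc2*, the ubiquitin ligase cIAP1, by 0.55 (SE 0.14, edgeR adjusted p = 0.0701). In translational efficiency 1 of 23 rose, against 1.87%. That gene was *Traf6*, an adaptor ligase of IL-1 and Toll-like receptors, by 0.61 (SE 0.14, edgeR adjusted p = 0.0330). The RPFs of *Traf6* were at 0.16 (edgeR adjusted p = 0.583) and its total RNA at -0.50 (edgeR adjusted p = 0.133). Its ratio thus moved more through lower total RNA than through higher RPFs, and neither was called. *Map3k7*, *Birc2* and *Traf6* were named after their values had been seen.

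At the pathway's entry, 13 of 26 ligands and receptors were tested for RPFs. *Ltbr*, the lymphotoxin beta receptor that feeds the p100 branch, was at 45.6 ± 20.0 CPM in KMNTC and 91.7 ± 25.8 CPM in KM4A2cr (SD, n = 4), higher in 4 of 4 pairs. It rose by 1.10 in RPFs (SE 0.17, edgeR adjusted p = 0.0118) and by 0.52 in translational efficiency (SE 0.12, edgeR adjusted p = 0.0335). *Il1a*, the cytokine IL-1 alpha and itself a target of NF-kB, stood at 37.3 ± 8.48 CPM in KMNTC and 16.0 ± 5.49 CPM in KM4A2cr (SD, n = 4). Its log2 fold change was -1.24 in RPFs (SE 0.15, edgeR adjusted p = 0.00453) and -1.06 in total RNA (SE 0.15, edgeR adjusted p = 0.00605), below 0 in all pairs of both. *Il18r1*, a chain of the IL-18 receptor, also fell, by 0.82 in RPFs (SE 0.23, edgeR adjusted p = 0.0770) and by 1.03 in total RNA (SE 0.18, edgeR adjusted p = 0.0155). Thus 1 of 13 rose and 2 fell in RPFs, against 6.6% and 3.72% of all genes tested. In total RNA 0 of 14 rose and 2 fell, against 4.35% and 1.78%. In translational efficiency 1 of 13 rose and 0 fell, against 1.87% and 1.04%.

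Of 38 target genes of the factor, 27 were tested for RPFs, with 0 rises, 1 fall and a median log2 fold change of -0.14, where 6.6% of all genes rose and 3.72% fell. The fall was that of *Cxcl3*, a neutrophil chemokine, by 1.25 (SE 0.34, edgeR adjusted p = 0.0712). Its pairs ranged from -0.27 to -2.44, and its total RNA fell by 1.04 (SE 0.27, edgeR adjusted p = 0.0709). In total RNA 1 of 27 target genes rose and 2 fell, against 4.35% and 1.78% of all genes. The others, named after their values had been seen, were *Csf2*, the cytokine GM-CSF, at 0.61 (SE 0.13, edgeR adjusted p = 0.0410), and *Ccl20*, a chemokine of epithelia, at -0.84 (SE 0.24, edgeR adjusted p = 0.0992). In translational efficiency 0 of 26 were called by edgeR, against 2.91% of all genes tested. By the same test 4 had an unadjusted p under 0.05, against 14.1% of all genes. Without replicate 4 the target genes had 4 rises and 6 falls among 28 tested in RPFs and 4 rises and 7 falls among 28 in total RNA. The ligands and receptors had 5 and 2 among 13 in RPFs, and 5 and 3 among 14 in total RNA. In those fits 33.4% of all genes tested were called for RPFs and 29.8% for total RNA. Of the 13 called values given here for list genes, 7, 4, 2 and 13 were called when replicate 1, 2, 3 or 4 was left out, and those of *Il1a* stayed called each time.

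Finally, the 3 members with the smallest RPF p were matched to the tested genes whose RPF log2 CPM followed theirs most closely. For *Bcl3* these were *Ephb3*, *Plxna1* and *Rwdd1*, for *Nfkbiz* they were *Alad*, *Hadhb* and *Rusc2*, and for *Ikbkb* they were *Mrs2*, *Zfp212* and *Sfmbt1*. The Pearson correlations over 8 libraries lay between 0.923 and 0.986, and over the 6 libraries of replicates 1 to 3 between 0.893 and 0.991. They are the highest of 10291 genes over few libraries that share replicate numbers and differ in depth, and are given only as a description.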

How the data were processed

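RPFs and cytoplasmic total RNA were sequenced in KMNTC and KM4A2cr cells, with 4 replicates each and 16 libraries, grouped by sample title. The RPF values that the authors deposited are raw counts of footprints over the coding sequence of each transcript. Reads had been trimmed with cutadapt 1.18, aligned with BBmap to protein-coding transcripts of GENCODE vM27 (1 per gene) and collapsed by UMI with UMI-tools 1.0.1. For total RNA, the authors deposited RSEM 1.3.3 expected counts and TPM per isoform, after Bowtie2 2.3.5.1 alignment (versions from the submitters' processing notes, which also list SAMtools 1.9 and DESeq2).

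Each of the 15235 RPF transcripts was assigned to its gene by means of the isoform tables, and expected counts were summed over the isoforms of 20622 genes and rounded. Symbols came from a gene name table. In R 4.3.3, genes were filtered with filterByExpr (minimum count 10), scaled by TMM and tested with edgeR 4.0.16's quasi-likelihood test, with cell line and replicate as terms. Translational efficiency was the interaction of line and kind of library over 16 libraries. Adjusted p-values are Benjamini-Hochberg values over all genes tested, with a threshold of 0.1, and tests were two-sided. Log2 CPM used a prior count of 2. The tests were checked on simulated data first.

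Replicate numbers pair the libraries: the series describes replicates as separate experiments on different days without tying numbers to days, and deviations from the line means correlated at 0.575 to 0.782 for RPFs and 0.611 to 0.756 for total RNA across genes in every pair. No 2 libraries of a group agreed within sampling noise. The alternatives were no replicate block, DESeq2 1.42.0, 3 other scalings, 2 other filters, a threshold of 0.05, the RPF isoform only, and each replicate left out. Counts of calls in the other lists without replicate 4, and their called genes with each replicate left out, were added after seeing the data, as was the order of mean TPM without replicate 4.

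The members, the gene lists and the tests were chosen with earlier results of these data known. Besides the members and single markers, the text names from each of the 4 pathway lists up to 3 called genes with the smallest RPF p. Where none was called, it names the gene with the smallest RPF p. It also names 3 genes most like each of the 3 members with the smallest RPF p. The files use another build than the promoter windows, so no gene coordinates are given. At these depths *Bcl3* has 4 to 53 counts in a library, and its fold is the least precise of the members in total RNA and translational efficiency. For RPFs that of *Relb* is. RPFs and total RNA were scaled separately, so a change of all mRNA or all footprints would leave no trace. A further allele that both lines share is not reported here.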

Additional observations from a re-analysis of the deposited data

Results flagged for a closer look

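Each of the 10 members was examined in the 4 libraries of each line for RPFs and for total RNA, 40 groups of 4 CPM values in all, for a highest or lowest library whose gap to the nearest other as a share of the whole range exceeded Dixon's 95% critical value. Chance flags about 1 in 20 groups, and 10 of 40 were flagged. The groups are not independent, since the members share libraries.

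In 6 groups the library was replicate 4 and the highest. *Nfkbia* stood at 176 CPM in the RPFs of KM4A2cr replicate 4, where the other 3 libraries held 23.5 to 29.6 CPM, and at 106 CPM in total RNA of the same replicate, against 16.0 to 24.0 CPM. *Nfkbiz* had 112 CPM in total RNA of KMNTC replicate 4 (others 51.3 to 61.4 CPM) and 91.7 CPM in KM4A2cr replicate 4 (others 46.4 to 51.3 CPM). *Ikbkb* had 69.6 CPM in total RNA of KM4A2cr replicate 4 (others 44.5 to 47.3 CPM). *Relb* also stood apart there in RPFs, at 9.42 CPM against 2.78 to 3.51 CPM. These flags rest on CPM. In TPM, total RNA of KM4A2cr replicate 4 was the lowest of its line for *Ikbkb* (20.9 TPM, others 21.4 to 24.3 TPM). For *Nfkbiz* it lay within the others (26.8 TPM, others 20.4 to 27.3 TPM).

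In the remaining groups another replicate stood apart. *Relb* was low in the RPFs of KMNTC replicate 1, at 1.54 CPM against 4.47 to 4.93 CPM. *Ikbkb* was high in the same RPF library, at 52.6 CPM against 39.4 to 40.2 CPM. *Nfkbib* was high in total RNA of KMNTC replicate 1, at 14.7 CPM against 10.9 to 11.4 CPM. *Tnfaip3* was low in the RPFs of KM4A2cr replicate 2, at 21.6 CPM against 37.2 to 38.6 CPM.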

How the results depend on the processing

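The count of called members was 0 for RPFs, total RNA and translational efficiency under every alternative except the fits without replicate 4, which called 1 in each (range with 1 replicate left out 0 to 1). Without the replicate block, the count over all genes fell from 1062, 667 and 291 to 0 for RPFs, total RNA and translational efficiency. As no gene was called there, the 0 called members cannot show whether the block mattered for their calls. Of the members' fold changes under the alternatives, 335 kept direction and side of the threshold, 3 passed it and 28 turned direction, and none of the 28 was called. The other 6 had no adjusted p, all from DESeq2 for translational efficiency. The 335 include the threshold of 0.05, which reused the main fit, so those values could neither turn direction nor become called. With library size only, which shifted the median of all genes by -0.14 for RPFs and -0.16 for total RNA, the RPF values were -0.098 for *Nfkb1*, -0.029 for *Nfkb2*, -0.020 for *Nfkbia*, -0.048 for *Nfkbib* and -0.035 for *Tnfaip3*, and total RNA of *Tnfaip3* was -0.061. Upper-quartile factors gave -0.0020 for *Nfkb1* in RPFs. Translational efficiency of *Tnfaip3* was 0.0022 without the replicate block and 0.011 with DESeq2. With 1 replicate left out, the RPF ranges were -0.089 to 0.14 for *Nfkb1*, -0.074 to 0.085 for *Rela*, -0.15 to 0.41 for *Relb*, -0.29 to 0.34 for *Nfkbia*, -0.026 to 0.15 for *Nfkbib* and -0.15 to 0.36 for *Tnfaip3*. In total RNA they were -0.27 to 0.059 for *Rela*, -0.26 to 0.044 for *Nfkbib*, -0.23 to 0.018 for *Ikbkb*, -0.17 to 0.0090 for *Nfkb2*, -0.13 to 0.34 for *Nfkbia*, -0.034 to 0.21 for *Tnfaip3* and -0.14 to 0.56 for *Bcl3*. In translational efficiency they were -0.035 to 0.21 for *Rela*, -0.12 to 0.13 for *Tnfaip3*, -0.16 to 0.067 for *Nfkbia* and -0.22 to 0.018 for *Nfkbiz*. The causes were not tested. A minimum count of 50 left no value for *Bcl3* and *Relb*. Leaving out replicate 1 left none for *Bcl3* in total RNA and translational efficiency, so its total RNA range above does not include that fit. Over all genes, 1062 RPF, 667 total RNA and 291 translational efficiency calls became 32 to 3469, 63 to 3260 and 10 to 673 with 1 replicate left out, 438, 321 and 76 at a threshold of 0.05, and with library size only 482 higher and 1137 lower for RPFs (679 and 383 before), 262 and 868 for total RNA (473 and 194 before) and 132 in all for translational efficiency. DESeq2 gave 136 for translational efficiency, and no filter on low counts 1268 for total RNA and 475 for translational efficiency.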
